A study of Mus musculus with 3 samples.

Results

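Gamma-secretase and Notch genes were followed across a radiation dose series in mouse long-term haematopoietic stem cells. The set holds 9 of the 23185 named genes on the arrays: Psenen, Psen2, Ncstn, Aph1a and Aph1b of the gamma-secretase complex, the receptor genes Notch1 and Notch2, and Rbpj and Hes1 of the nuclear response. The genes were listed by function around Psenen, which was itself selected on its measured difference between 2.5 and 0.02 Gy in these same arrays, so its values below are a description. Cells from bone marrow, sorted as Lin- ckit+ Sca+ Flk2- CD48- CD150+, spent the night in Stemspan SFEM and then received 0 Gy (the unirradiated group), 0.02 Gy (the low dose) or 2.5 Gy (the high dose) of gamma rays. RNA was taken 2 h after exposure. Strain, age and sex of the mice, and whether animals were pooled, are not stated in the labels, and every group shares the sort and the overnight culture.

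Each dose was measured on 1 array, so every difference is between single arrays, without a test or a replicate spread. Values are the authors' deposited log2 levels. A level is read only across arrays for 1 gene, since probe sets of different genes have different affinities. Genes whose mean over the 3 arrays was at least 4.55, the median of all named genes, entered counts and medians; this left 11593 genes and kept all 9 of the set. A difference counts as large here at 2-fold, which is 1 on the log2 scale. In each comparison between 0.578% and 1.44% of all genes were this much higher, or this much lower. Counts in every list below stand beside those shares, and none past 2-fold in a short list is near them. RNA from fewer cells of a type and less RNA per cell cannot be told apart in such bulk samples.

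Gamma-secretase is a membrane-embedded protease that cuts single-pass membrane proteins within the bilayer. A presenilin carries the active site, nicastrin helps to admit the substrate, an APH-1 protein acts as the scaffold, and PEN-2, the product of Psenen, activates presenilin. When a ligand on a neighbouring cell binds a Notch receptor, an ADAM protease sheds the outside of the receptor and gamma-secretase releases the inner domain, which enters the nucleus, binds RBPJ and Mastermind proteins and switches on genes such as Hes1. In blood formation the pathway is best known for the emergence of stem cells in the embryo and for commitment to the T cell lineage.

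A stretch upstream of 1 start site of Psenen is shown because Psenen carries the largest differences of the set and shares its 5′ region with a neighbour. In RefSeq (GRCm38.p6), Psenen lies on chromosome 7 between Lin37 and U2af1l4, and its gene model overlaps that of U2af1l4 by 288 bases. From the more downstream of its start sites in the table to the start of U2af1l4, which is transcribed in the other direction, lie the 135 bases at chr7:30563205-30563339, printed on the minus strand, the strand of Psenen. Capitals mark the only match to either motif searched.

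Psenen: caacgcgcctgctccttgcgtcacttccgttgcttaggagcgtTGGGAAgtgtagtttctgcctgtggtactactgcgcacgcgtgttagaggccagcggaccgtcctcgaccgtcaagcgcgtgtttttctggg

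The motifs were the core TGGGAA bound by RBPJ and the N box CACNAG bound by Hes proteins, each on both strands of the 250 bases before a start site. RefSeq promoter entries, 11 in all, were found for 8 of the 9 genes. The RBPJ core was in entries of 3 genes, Psenen, Psen2 and Rbpj, and the N box in entries of 3, Psen2, Notch1 and Notch2. Of 32851 promoter entries of that length, 21.6% held the RBPJ core and 36.7% the N box, so either motif is common by its letters alone. The matches to the RBPJ core are shown with their flanks because RBPJ is the factor through which Notch acts, and capitals mark the core. A match is a description of letters and not of binding. They lie at chr7:30563281-30563306 (minus strand), chr1:180246024-180246049 (minus strand), chr5:53590187-53590212 (plus strand) and chr5:53590271-53590296 (plus strand) of GRCm38.p6.

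Psenen: ttaggagcgtTGGGAAgtgtagtttc
Psen2: cacaggagacTTCCCAcagatgttta
Rbpj, upstream match: tgaaaaaggcTGGGAAcccgcggcga
Rbpj, downstream match: cgctcgcattTTCCCAggacccctcc

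Across the 3 arrays the genes of the set differed most in Psenen and Ncstn and least in Notch2. Psenen was at 7.26 in unirradiated cells, 8.92 at 0.02 Gy and 6.92 at 2.5 Gy. The low-dose array was the high one, and the other two lay 0.34 apart. Ncstn, which encodes nicastrin, was at 5.92, 6.79 and 6.09 in the same order of dose. It too was highest on the low-dose array, with the unirradiated and high-dose arrays 0.17 apart.

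Aph1a, a gene of the APH-1 scaffold, was at 6.85, 7.18 and 6.63. The low-dose array was again the highest and the high-dose array the lowest. Psen2, a presenilin gene, was at 4.67, 4.99 and 4.88, with the unirradiated array lowest. Aph1b, another scaffold gene, did not share that order, at 4.69, 4.71 and 5.18, with the high-dose array highest.

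Notch2, one of the receptors, was at 6.60, 6.59 and 6.59. Its arrays were the closest of the 9 genes. Notch1, the receptor that drives T lineage commitment, was at 5.96, 5.80 and 5.73, highest on the unirradiated array. Rbpj, the DNA-binding partner of the released Notch domain, was at 4.83, 4.77 and 4.75. Hes1, a repressor switched on by Notch, was at 4.73, 5.27 and 4.88, with the low-dose array highest. Psen2, Aph1b, Rbpj and Hes1 all had arrays within 0.3 of the level minimum, where it is not known how far a signal stood above background.

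**Figure D1:**
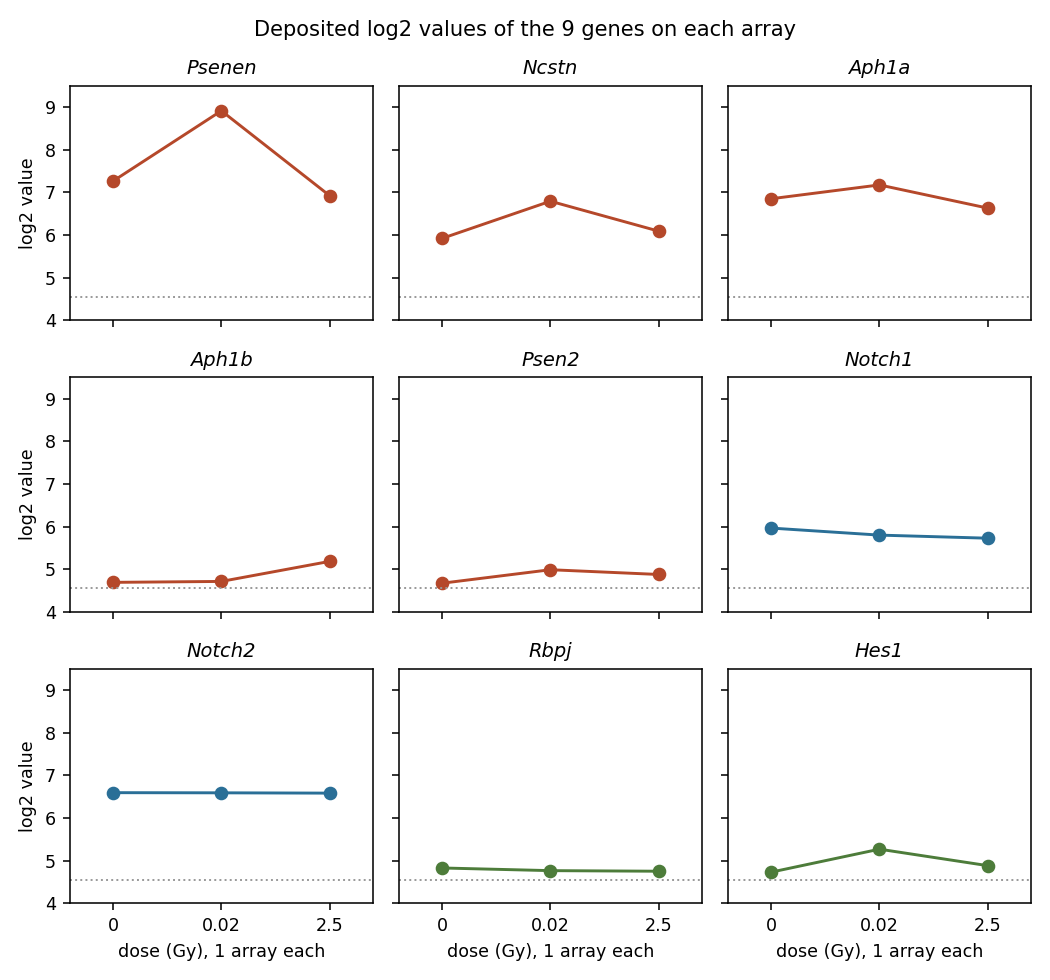
Deposited log2 values (vertical axis) of the 9 genes on the arrays at 0, 0.02 and 2.5 Gy (horizontal axis), 1 point per array; colours mark gamma-secretase (red), receptors (blue) and nuclear genes (green), and the dotted line is the level minimum of 4.55. Psenen peaks at 8.92 on the low-dose array, while Notch2 stays at 6.59 to 6.60.

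At 0.02 Gy, Psenen was 1.65 above the unirradiated array on the log2 scale, a 3.14-fold difference, and ranked 18 from the top of 11593 genes. It was the only gene of the 9 past 2-fold in this comparison. The low-dose array is also part of the comparison Psenen was chosen on, so nothing is read from that count or rank. The background was 1.33% of all genes at least 2-fold higher and 1.14% at least 2-fold lower. Ncstn followed at 0.87 (1.83-fold), rank 268 from the top, which lay just above the central 95% of all genes (-0.75 to 0.85). Hes1 was 0.54 higher (1.45-fold), Aph1a 0.32 and Psen2 0.32 higher, all inside that range. Aph1b was at 0.022, Notch2 at -0.0037, Rbpj at -0.063 and Notch1 at -0.17. The median of the 9 was 0.32, with 6 above 0, against 0.039 and 54.2% above 0 over all genes. Without Psenen the median of the other 8 was 0.17. Quantile normalization and loess both put the median of the 9 at 0.14, Aph1a at 0.14 and Ncstn at 0.75.

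At 2.5 Gy, none of the 9 genes was 2-fold higher or lower than in unirradiated cells, where the background was 1.15% higher and 0.578% lower. Psenen was the lowest of the 9 at -0.34 (rank 1324 from the bottom), while Ncstn was at 0.17 and Hes1 at 0.15. Aph1b was the highest at 0.49 (1.41-fold, rank 1072 from the top), and Psen2 was at 0.21. Aph1a was at -0.22, Notch1 at -0.24, Rbpj at -0.076 and Notch2 at -0.011. All lay inside the central 95% of genes (-0.65 to 0.79). The median of the 9 was -0.011, with 4 above 0, beside 0.025 and 53.4% above 0 over all genes. With the minimum raised to the 75th percentile fewer genes remained, and their median of -0.22 was the value of Aph1a. Psenen was at -0.51 after quantile normalization and -0.52 after loess. This comparison shares the unirradiated array with the one at 0.02 Gy, and the high-dose array with the one Psenen was chosen on.

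The direct comparison of 2.5 with 0.02 Gy, which leaves out the unirradiated array, is the one Psenen was chosen on. It shares the low-dose array with the comparison of 0.02 Gy with unirradiated cells. Genes high on that array enter both comparisons, so the signs here are not a separate observation. Psenen was lower by 3.98-fold (-1.99 on the log2 scale, rank 7 from the bottom). It was the only one of the 9 past 2-fold, beside a background of 1.44% higher and 1.06% lower, and nothing is read from that count. Ncstn (-0.70, 1.63-fold, rank 395 from the bottom), Aph1a (-0.54, 1.46-fold, rank 777) and Hes1 (-0.39, 1.31-fold) were lower on the high-dose array too, inside the central 95% of -0.77 to 0.79. Psen2 (-0.11), Notch1 (-0.073), Rbpj (-0.014) and Notch2 (-0.0071) were close to 0. The exception in direction was Aph1b, 0.47 higher. In the deposited values 8 of 9 genes were below 0, with a median of -0.11, against 5838 of 11593 genes and a median of -0.0025 overall. Without Psenen these were 7 of 8 and -0.092. Notch2, counted among them, was above 0 after quantile normalization (0.013) and after loess (0.034). The median was -0.54 among genes of the set past the 75th percentile of level. Fewer genes remain there, Psenen among them, and that median is the value of Aph1a.

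**Figure D2:**
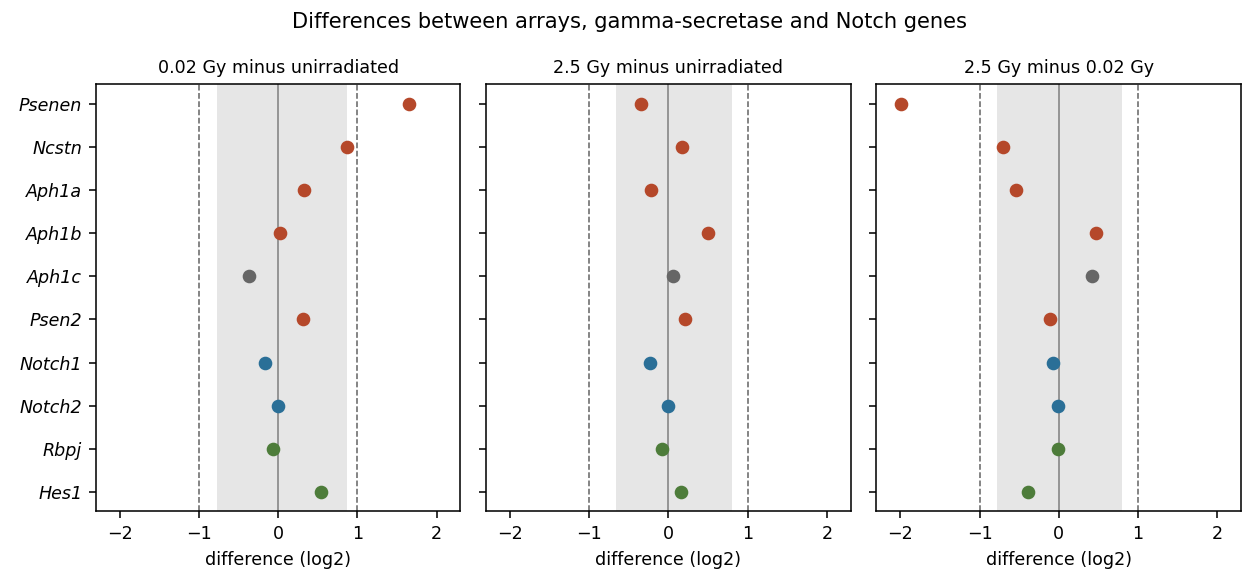
Difference in log2 value (horizontal axis) of each gene (rows) in the 3 comparisons, 1 point per gene, with the 9 genes in colour and Aph1c in grey; the shaded band holds the central 95% of 11593 genes and dashed lines mark 2-fold. Psenen lies outside the dashed lines at 1.65 and -1.99, and every gene lies within the band at 2.5 Gy against unirradiated cells.

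The subunit genes did not share 1 pattern. A sixth subunit gene on the arrays, Aph1c, was at 6.52, 6.15 and 6.57, lowest on the low-dose array. Aph1c and Aph1b are near-identical copies that lie close together on chromosome 9, and how far probes tell them apart is not known here, so their values are uncertain. Both were higher at 2.5 than at 0.02 Gy, by 0.42 (Aph1c) and 0.47 (Aph1b), while Aph1a was lower by 0.54 on that scale. Over the 6 subunit genes the low dose minus unirradiated differences ran from -0.36 (Aph1c) to 1.65 (Psenen), with 5 above 0. The differences of high dose minus low dose ran from -1.99 to 0.47, with 4 below 0. Over all genes 54.2% were above 0 in the former comparison, and 5838 of 11593 were below 0 in the latter. Both comparisons share the low-dose array.

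The genes beside Psenen were read on the same arrays. U2af1l4, a relative of the splicing factor U2AF subunit genes, was at 5.65, 6.01 and 5.61, 0.36 higher at the low dose than unirradiated and 0.40 lower at the high dose than at the low dose (-0.40). Lin37, a gene of the cell-cycle repressor complex DREAM, was at 6.65, 6.95 and 6.41, with differences of 0.30 and -0.54. Both flanking genes had their highest array at the low dose, as Psenen did, with a smaller spread. Ncstn likewise overlaps a neighbour on the opposite strand, Copa, by 261 bases of the gene models. Copa, which encodes a coat protein of transport vesicles and is named here after its values were seen, was at 6.06, 6.37 and 6.08. It was 0.31 higher at the low dose than unirradiated and at -0.29 for high dose minus low dose. Which probes lie in the overlaps is not known here, and their part in the values was not tested.

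Of genes at or above the level minimum on all 3 arrays, the 5 with profiles nearest to Psenen were found by the root mean square distance of centred log2 values over the 3 arrays. In order they were 5830417I10Rik (distance 0.147), 1700084E18Rik (0.209), Mrpl42 (0.219), a mitochondrial ribosome gene, the small Cajal body RNA gene Scarna3a (0.221) and Dnajc8 (0.237), a gene of a J-domain co-chaperone. All 5 were at least 2-fold higher at 0.02 Gy than unirradiated (1.15 to 1.47) and at least 2-fold lower at 2.5 than at 0.02 Gy (-1.97 to -1.43). That follows from the search, which picked values near those of Psenen, so nothing is read from that count. The same search for Hes1 gave Lgals8, Anxa11, Babam2, Asxl2 and Ncln at distances of 0.0046 to 0.0070. With 3 arrays a near profile is a description of these arrays.

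**Figure D3:**
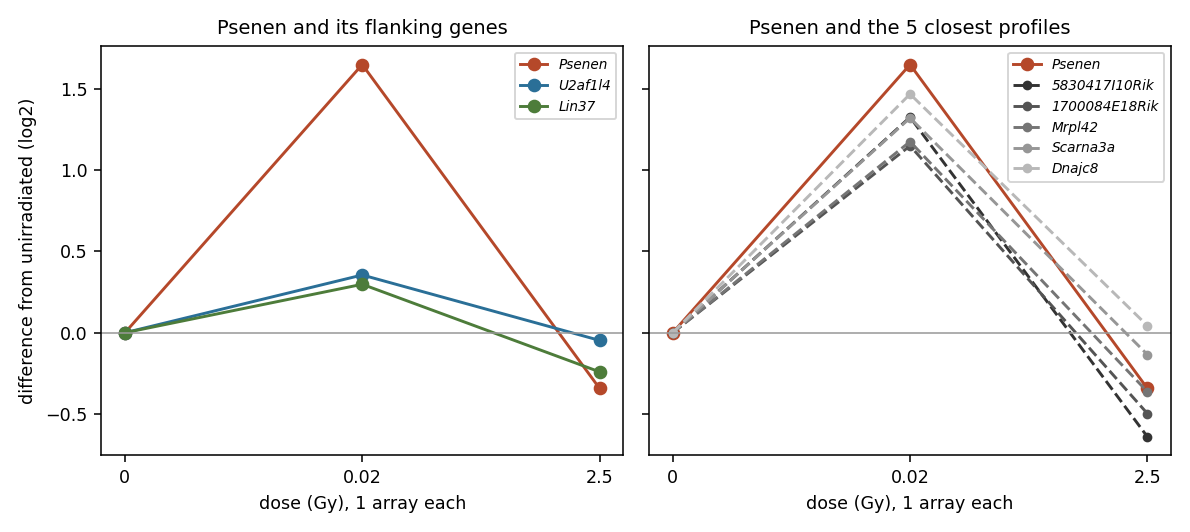
Difference from the unirradiated array in log2 (vertical axis) on the arrays at 0, 0.02 and 2.5 Gy (horizontal axis), for Psenen with its flanking genes (left) and with the 5 nearest profiles (right), 1 point per array. U2af1l4 and Lin37 have the same order of arrays at 0.02 Gy as Psenen but reach 0.36 and 0.30, where Psenen reaches 1.65.

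The arrays also held the other receptor genes and the ligand genes of the pathway. Notch3 was at 5.34, 5.44 and 5.31, and Notch4, known from endothelial cells, at 5.21, 4.76 and 5.09. Over the 4 receptor genes no difference reached 2-fold in any comparison, and the medians were -0.084, -0.072 and -0.040 for 0.02 Gy against unirradiated, 2.5 Gy against unirradiated and 2.5 against 0.02 Gy. All 5 ligand genes lay below the level minimum by their mean. Dll1 was at 3.74, 4.34 and 4.16, Dll3 at 3.97, 3.85 and 4.01, and Dll4 at 4.16, 4.35 and 4.02. Jag1 was at 3.06, 2.92 and 3.22 and Jag2 at 3.91, 4.21 and 4.39.

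Genes that prepare receptors for cleavage were also within 2-fold in every comparison (8 of 8 past the level minimum). Adam10, the protease that sheds activated Notch, was at 5.97, 6.48 and 6.21, highest at the low dose as were Psenen and Ncstn. Furin, which cuts the receptor during its transport, was at 5.80, 6.18 and 6.49, with high dose minus unirradiated at 0.70. Pofut1, which adds the fucose needed for ligand binding, was 0.58 higher at the low dose than unirradiated and at -0.62 for high dose minus low dose. Of the Fringe genes, whose products extend that fucose, Mfng (0.60) and Rfng (0.62) were higher in the last comparison and Lfng was at -0.24. The list medians were 0.17, 0.21 and 0.028 in the order of comparisons above.

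Among 13 genes of ligand and receptor turnover, 8 passed the level minimum and none of these was 2-fold different. Dtx3, a Deltex relative, was 0.66 higher than unirradiated at both doses, and the ubiquitin ligase gene Itch was 0.47 higher at 0.02 Gy and 0.56 at 2.5 Gy. Dtx4 was at -0.30 and -0.45, but passed the level minimum through the unirradiated array (4.83), since both irradiated arrays (4.53 and 4.38) lay below it. Between the doses this list differed little, from -0.15 (Dtx4; Mib2 was at -0.14) to 0.13 (Dtx2). Both dose comparisons share the unirradiated array.

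In the nuclear complex, 14 of 17 genes passed the level minimum and none was 2-fold different. Hdac1, a histone deacetylase gene of the co-repressor side, was at 5.24, 5.20 and 6.13, which set the high-dose array 0.90 above the unirradiated and 0.93 above the low-dose array. Sin3a, a co-repressor scaffold, was 0.50 higher than unirradiated at 0.02 Gy and 0.77 higher at 2.5 Gy. Ep300, a co-activator acetyltransferase, was 0.49 and 0.52 higher. Maml3, a Mastermind co-activator, was 0.51 higher at the low dose, and Kat2a was at -0.34 for high dose minus low dose. The medians of the list were 0.20 and 0.18 against unirradiated and 0.0099 between the doses.

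Of 15 genes known as Notch targets in some tissue, 8 passed the level minimum, and Myc was the only one past 2-fold. Myc, a growth regulator with many inputs besides Notch, was at 6.06, 6.62 and 7.67, 3.05-fold above the unirradiated array at 2.5 Gy and 2.06-fold above the low-dose array. Over all genes, 1.15% and 1.44% were at least 2-fold higher in these comparisons. Gata3, a T lineage and stem cell regulator, was at 5.97, 5.75 and 5.14, with -0.83 for high dose minus unirradiated and -0.61 between the doses. Hes5 was at 5.48, 5.01 and 5.07 and Heyl at 5.62, 5.19 and 5.20, both lower on either irradiated array than on the unirradiated one. Hes1, like Myc, was higher at the low dose than unirradiated, unlike Hes5 and Heyl. The list medians were 0.12, -0.10 and -0.15, with 5, 3 and 3 of 8 above 0. Over all genes 54.2%, 53.4% and 49.4% were above 0, so these counts are read no further.

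**Figure D4:**
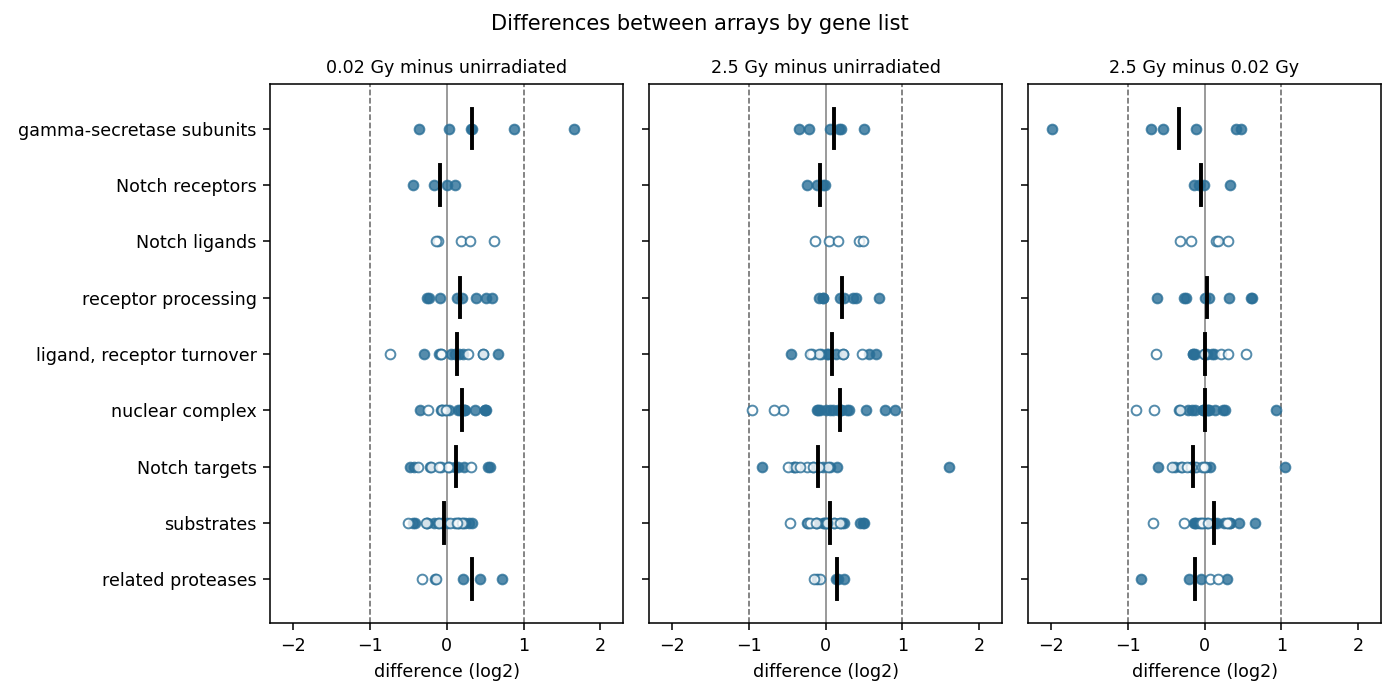
Difference in log2 value (horizontal axis) for genes of 9 pathway lists (rows) in the 3 comparisons, 1 point per gene, filled past the level minimum and open below it; black bars are medians of the filled points and dashed lines mark 2-fold. Psenen among the subunits (1.65 and -1.99) and Myc among the targets (1.61 and 1.04) are the points beyond 2-fold.

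Markers of the sorted cells and of other cells were read on the same arrays. All 11 stem cell markers lay above the level minimum on every array, with list means of 6.02, 6.12 and 6.03 (log2). Cd48, selected against in the sort, was below it on all 3 arrays (3.31 to 3.62). Flt3, which encodes Flk2 and was also selected against, was above it at 4.60, 4.95 and 4.93. The minimum is a median over genes and not a limit of detection. A marker's place above or below it does not show whether such cells were present. The 9 T cell markers averaged 4.42, 4.06 and 4.25, and the 6 B cell markers 4.15, 4.04 and 4.08. Cd3d, Cd3e and Cd3g were below the minimum throughout, while Thy1 (-0.79), Cd5 (-0.68) and Cd8b1 (-0.48) passed it by their mean and were lower at 0.02 Gy than unirradiated. Thy1 passed it only through the unirradiated array (5.32, against 4.54 and 4.45), and Cd8b1 lay below it on the low-dose array (4.44). Their differences are thus partly set by the filter. The 9 myeloid markers averaged 5.30, 5.62 and 5.60, and 2 of the 8 past the minimum were at least 2-fold above unirradiated at either dose, S100a8 (1.30 and 1.24) and S100a9 (1.12 and 1.56). Elane, a neutrophil protease gene, was highest on the low-dose array as Psenen was, 0.94 higher at 0.02 Gy than unirradiated and at -0.82 between the doses, while Csf1r (-0.27) and Ctsg (-0.069) were below unirradiated at 0.02 Gy. Megakaryocyte markers averaged 6.69, 6.87 and 6.69, and endothelial and stromal markers 4.98, 5.01 and 4.95. Erythroid markers averaged 5.26, 5.09 and 5.13. The means of the stem cell, myeloid, megakaryocyte and endothelial lists were highest on the low-dose array, while those of the T cell, B cell and erythroid lists were lowest there. Of the 7 endothelial and stromal markers past the minimum, 4 were above 0 and 3 below at 0.02 Gy against unirradiated. Over all genes 54.2% were above 0 there. The part of other cells in the differences was not tested.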

How the data were processed

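Per the labels' protocols, biotinylated cDNA of sorted stem cells was made for Affymetrix whole-transcript arrays. The deposited values are log2 levels, 1 per probe set and array, from 1.55 to 12.4. Partek is named without a version, per the submitters' processing notes. How background and scaling were handled is not stated in the labels. The array medians were 4.60, 4.54 and 4.55 (0, 0.02 and 2.5 Gy). Depth has no meaning for arrays; their number, 1 per dose, limits the precision.

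Of 25206 probe sets, 23185 had 1 gene symbol in the platform table, all matched to RefSeq by Entrez identifier. The other 2021 did not have exactly 1 symbol and were left out. Differences, ranks and medians were computed with pandas 2.3.3 under Python 3.11.15. The code was tested on simulated data. Genes to name were set by rule: the 9 genes, all subunit, receptor and ligand genes, from each other list those past 2-fold and the 3 largest differences per comparison, the nearest profiles and the flanking genes of Psenen. Members and lists were chosen with earlier results of these data known. Alternatives were loess (span 0.3, statsmodels 0.14.6), median centring, quantile normalization, a minimum at the 75th percentile (5.46) or none, and sizes of 1.5-fold and 3-fold.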

Additional observations from a re-analysis of the deposited data

How the results depend on the processing

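Counts of the 9 genes past 2-fold (1 at 0.02 Gy and 0 at 2.5 Gy against unirradiated, and 1 at 2.5 against 0.02 Gy) were the same under both other level minima, all 3 scalings and 3-fold. At 1.5-fold the first and last became 2, since Ncstn passes that size. The median of the 9 at the low dose, 0.32, was 0.14 after quantile normalization and 0.14 after loess, and 0.17 without Psenen, an alternative chosen after seeing the data. With the minimum at the 75th percentile fewer genes entered, and the medians of the comparisons with the high dose were -0.22 (against unirradiated) and -0.54 (against the low dose). Both are the value of Aph1a, the middle one of the genes left. Of 81 differences of single genes under the scalings, 67 moved by less than 0.1 and 14 by more, at most 0.25, and 5 changed sign, all of Notch2 or Rbpj and all within 0.1 of 0. Quantile normalization and loess put Psenen at 1.40 and 1.42 for low dose minus unirradiated. No paired analysis was possible because the groups are single arrays. Signal over background limits what can be said of genes near the level minimum.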

Other observations

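Presenilin-like proteases taken with the beta-secretases, and other substrates of gamma-secretase, were read as further lists. Of 6 genes in the protease list, 4 passed the level minimum and none was 2-fold different. Sppl3, a presenilin-like protease of the Golgi, was at 5.93, 6.64 and 5.82 (unirradiated, low and high dose). It was 0.71 above the unirradiated array at the low dose and at -0.82 for high dose minus low dose, rank 237 from the bottom of 11593 genes. Sppl2a, its relative in lysosomes, was at 6.16, 6.60 and 6.40, also highest at the low dose, while Sppl2b was at 5.63, 5.48 and 5.77, lowest there. Bace1, the beta-secretase gene, was 0.21 and 0.17 above unirradiated at the low and the high dose.

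Among 21 substrate genes, the Notch receptors included, 14 passed the level minimum and none was 2-fold different in any comparison. App, the amyloid precursor protein gene, was at 4.77, 4.92 and 5.26, and its relative Aplp2 at 6.72, 7.05 and 6.93. The receptor genes Insr and Igf1r were 0.48 and 0.45 higher at 2.5 Gy than unirradiated. Cxcl16, a membrane-bound chemokine, was at 5.80, 5.38 and 6.04, lowest on the low-dose array, and Csf1r was 0.45 higher at 2.5 than at 0.02 Gy. The medians of the list were -0.034, 0.062 and 0.13 at 0.02 Gy against unirradiated, at 2.5 Gy against unirradiated and at 2.5 against 0.02 Gy.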
